A study of Drosophila melanogaster with 3 samples.

Results

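The Antennapedia complex is the proximal Hox cluster of Drosophila melanogaster, and its 5 Hox genes lab, pb, Dfd, Scr and Antp were located by name on chromosome arm 3R in the authors' deposited peak-to-feature tables. They are 5 of the 12271 gene names in those tables, which list a gene only where at least 1 array had a called peak nearby. The complex was taken as a stretch of 450 kb of 3R that begins 37.8 kb before the lab span and ends at position 2900000. The study mapped contacts of 3 insulator binding sites by circular chromosome conformation capture (4C), in which cross-linked chromatin is cut with DpnII and ligated, and the fragments joined to a bait are amplified by inverse PCR. The material was S2-DRSC, a cultured line of embryonic origin, untreated in every group. Arm 3R carries BaitA (91997 to 92920) and, further from the centromere, BaitC (384440 to 385252), while BaitB (8485115 to 8485894) is on arm 2L. For every bait 1 tiling array was hybridised with the 4C product in Cy5 and DpnII-cut unligated genomic DNA, the background, in Cy3. No array was repeated, so no value below has a replicate error, no test between arrays was possible and no p-value is given.

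Hox genes encode homeodomain transcription factors that give body segments their identity along the head-to-tail axis, and their order on the chromosome follows the order of the segments they pattern. Polycomb group proteins keep them silent where they are not needed and trithorax group proteins keep them active. Insulator proteins bind between their regulatory domains. Polycomb-bound Hox loci are known as sites of long-range chromosome contacts in flies.

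Each value is the log2 ratio of 4C product over unligated DNA, minus the median of its array, so 0 is the level of a typical probe. The base of the logarithm is not written in the deposited table and base 2 was assumed. The probes inside each bait averaged between 7.53 and 8.57 in their own array, and the SD over all 2157868 probes was 2.45 for BaitA, 2.50 for BaitB and 1.50 for BaitC. Smaller values of BaitC therefore go with a narrower array. Probes were a median of 55 bp apart and neighbours were not independent: on 3R the values of probes 250 bp apart correlated with r = 0.614 (BaitA), 0.591 (BaitB) and 0.475 (BaitC), and those 2000 bp apart with r = 0.095, 0.068 and 0.075 in the same order. These correlations are across probes of 1 array. The file headers place the BaitA array on the slide that had carried the BaitB array before it. The BaitC array came from a different slide, as the third hybridised there.

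The 5 Hox genes lie between 2411.6 and 2643.2 kb from BaitA and between 2119.2 and 2350.8 kb from BaitC. In order from the centromere, labial (lab, minus strand) was listed at 2487789 to 2504068. It acts in the head and midgut. Proboscipedia (pb, minus strand), a gene of the mouthparts, was listed at 2533929 to 2565821. Deformed (Dfd, plus strand), which patterns the mandibular and maxillary segments, was listed at 2618046 to 2627661. Sex combs reduced (Scr, minus strand), of the labial and prothoracic segments, was listed at 2651103 to 2667902. Antennapedia (Antp, minus strand), which specifies thoracic identity and legs, was listed at 2724009 to 2735632. Coordinates are those of the deposited files, which do not name a build, but whose 3R length of 27905053 bp is that of Release 5. The tables give transcript spans and not exons, with a single start site for each of the 5 genes. For Antp the listed span is 11.6 kb, while the RefSeq gene of Release 6 is 103 kb long, and for Scr the lengths are 16.8 and 26.9 kb. The listed span was also the shorter one for lab, pb and Dfd, at 16.3, 31.9 and 9.62 kb against 17.2, 34.3 and 10.6 kb. The start sites below are thus the listed ones. They may lie inside the gene and not at a promoter, which was not tested. Promoters elsewhere in Antp and Scr were not measured separately.

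The mean over the complex lay close to that of the comparison bins in all 3 arrays, though below the nearer ones with BaitA. With BaitA its 90 bins of 5 kb averaged 0.27 ± 1.12 (SD over bins) and ran from -2.48 to 2.95. The 665 bins of 3R outside the complex, at 50 to 200% of its distance from BaitA, averaged 0.45 ± 1.26. With BaitC the complex averaged 0.08 ± 0.70, against 0.03 ± 0.69 over 579 such bins. With BaitB, which is on another chromosome, it averaged -0.19 ± 1.12, against -0.27 ± 1.18 over 5207 bins of 3R beyond 1 Mb from its proximal end. Each difference was smaller than the SD over bins, which is the spread of single bins and not the error of such a mean. Among windows as long as the complex, shifted in 50 kb steps and therefore overlapping, 22 of 60 were lower than it with BaitA. The counts were 36 of 51 with BaitC and 329 of 516 with BaitB.

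The place of the complex on the decline of the ratio with distance was read in 50 kb bins. The BaitA array averaged 1.90 ± 0.54 (SD over 10 bins) between 0.5 and 1 Mb from the bait, 1.10 ± 0.69 between 1 and 2 Mb and 0.34 ± 0.45 between 3 and 4 Mb. Its 9 bins of the complex averaged 0.27 ± 0.46, and the 11 other bins between 2 and 3 Mb averaged 0.68 ± 0.56. The BaitC array had reached 0.15 ± 0.27 by 1 to 2 Mb, and its 9 bins of the complex averaged 0.08 ± 0.23. Of the 9 bins of the complex, 3 were below all of the other bins between 2 and 3 Mb with BaitA and 0 with BaitC. On 3R distance from these baits is also distance from the centromere, and the effects of these distances on the ratio cannot be told apart.

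**Figure D1:**
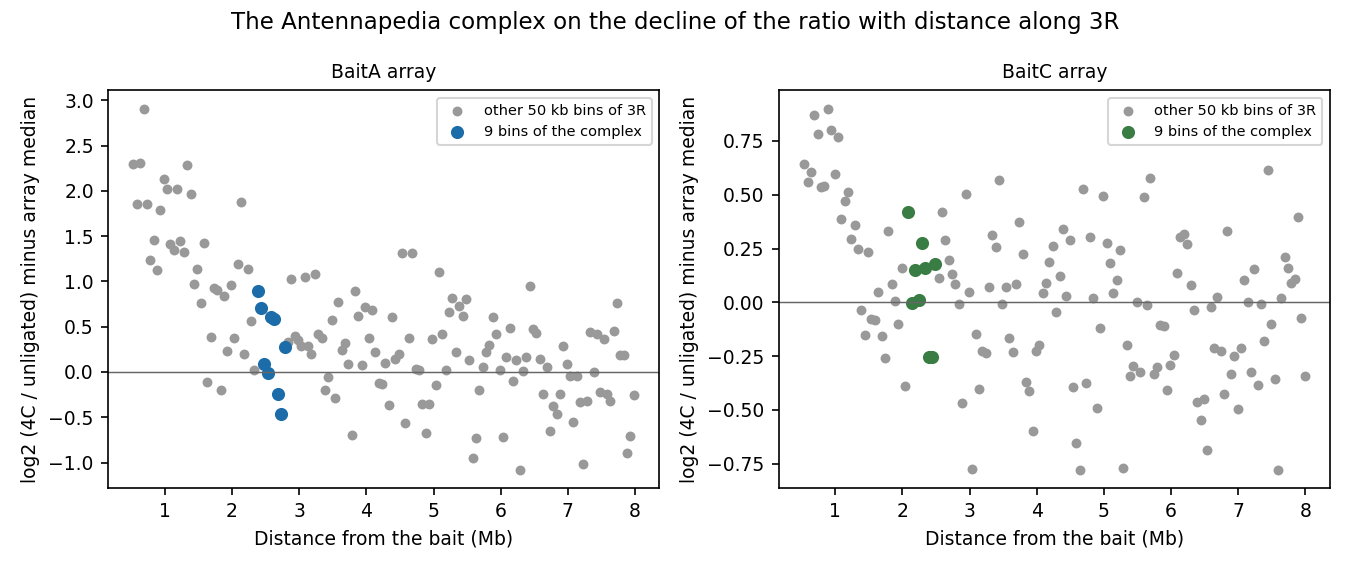
Mean log2 ratio minus the array median in 50 kb bins of 3R (y axis) against distance from the bait in Mb (x axis) for BaitA and BaitC; grey points are bins outside the Antennapedia complex and coloured points the 9 bins inside it. The bins of the complex run from -0.47 to 0.90 for BaitA and from -0.25 to 0.42 for BaitC. In the BaitA panel 3 coloured points lie below all 11 grey points between 2 and 3 Mb, and in the BaitC panel 0 do.

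The Hox start sites differed from each other most in the BaitA array. Over the probes within 1 kb of the start site, lab averaged 3.04 ± 0.57 (SD over 35 probes), Antp 2.30 ± 2.73 (33 probes), pb 2.29 ± 1.33 (33 probes), Scr 0.96 ± 2.83 (32 probes) and Dfd -2.09 ± 1.32 (35 probes). All 35 probes at lab and all 33 at pb were above the array median, while 4 of 35 were at Dfd. The lowest probe at lab was at 1.68 and the highest at Dfd at 0.59, so the probes of the 2 genes did not overlap. Neighbours in this order differed by less than the larger of their SDs, except Scr and Dfd, which were 3.04 apart.

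Set against 2 kb windows of 3R at a similar distance from BaitA, lab was high but not alone, since 82 of 1512 windows were at its level or above, which put it at the 94.6th percentile. Antp was at the 85.0th percentile, pb at the 84.5th, Scr at the 57.8th and Dfd at the 9.94th. These ranks depended on the statistic and the comparison. By the median over probes lab was at the 89.8th percentile and pb at the 67.7th, and among the start sites of other genes lab was at the 91.3rd and Dfd at the 3.72nd. Against all windows of 3R beyond 1 Mb from BaitA, which include the more distant and lower part of the arm, lab was at the 98.2nd. The median of the 5 genes was 2.29, beside 0.38 over the 12268 genes of the tables with at least 5 probes near a start site. Of those genes, 5% lay above 2.86. All of them have a called peak nearby in at least 1 array, so they do not stand for every gene of the genome.

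The start-site levels in the BaitB array were ordered differently. The lab window averaged 1.44 ± 1.61, Dfd 0.27 ± 2.59, pb 0.22 ± 2.75, Scr -0.25 ± 3.09 and Antp -1.70 ± 1.72, and no neighbours in this order differed by more than their SDs. The percentiles among 12815 windows of 3R ran from 21.5 for Antp to 84.3 for lab. The lab value held for the closest probes only: within 2 kb of the start site it was -0.64. For the 5 genes the median was 0.22, beside 0.39 over all genes.

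The BaitC values spanned the narrowest range. Antp averaged 0.94 ± 1.06, Scr 0.71 ± 1.46, pb 0.11 ± 0.87, lab -0.21 ± 1.38 and Dfd -0.86 ± 1.34, and again no neighbours differed by more than their SDs. The percentiles ran from 17.3 for Dfd, where 8 of 35 probes were above the array median, to 84.9 for Antp, where 29 of 33 were. The median of the 5 genes was 0.11, beside 0.26 over all genes.

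Across the arrays, pb was the one Hox gene whose start site mean was above the median in all 3. Its sign was not stable in the BaitB array, where it was -1.55 within 500 bp of the start site, or in the BaitC array, where the median over probes was -0.12. Dfd was lowest or near lowest with both baits of 3R, and Antp was lowest with BaitB and among the highest with BaitA and BaitC. The place of Antp with BaitA depended on the window. It averaged 0.91 within 2 kb of the start site and 0.23 within 5 kb, where it was the lowest of the 5 genes. Over the probes within 1 kb, Antp was 4.00 higher in the BaitA than in the BaitB array, the largest gap between these arrays among the 5 genes. The error of such gaps between arrays was not measured.

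**Figure D2:**
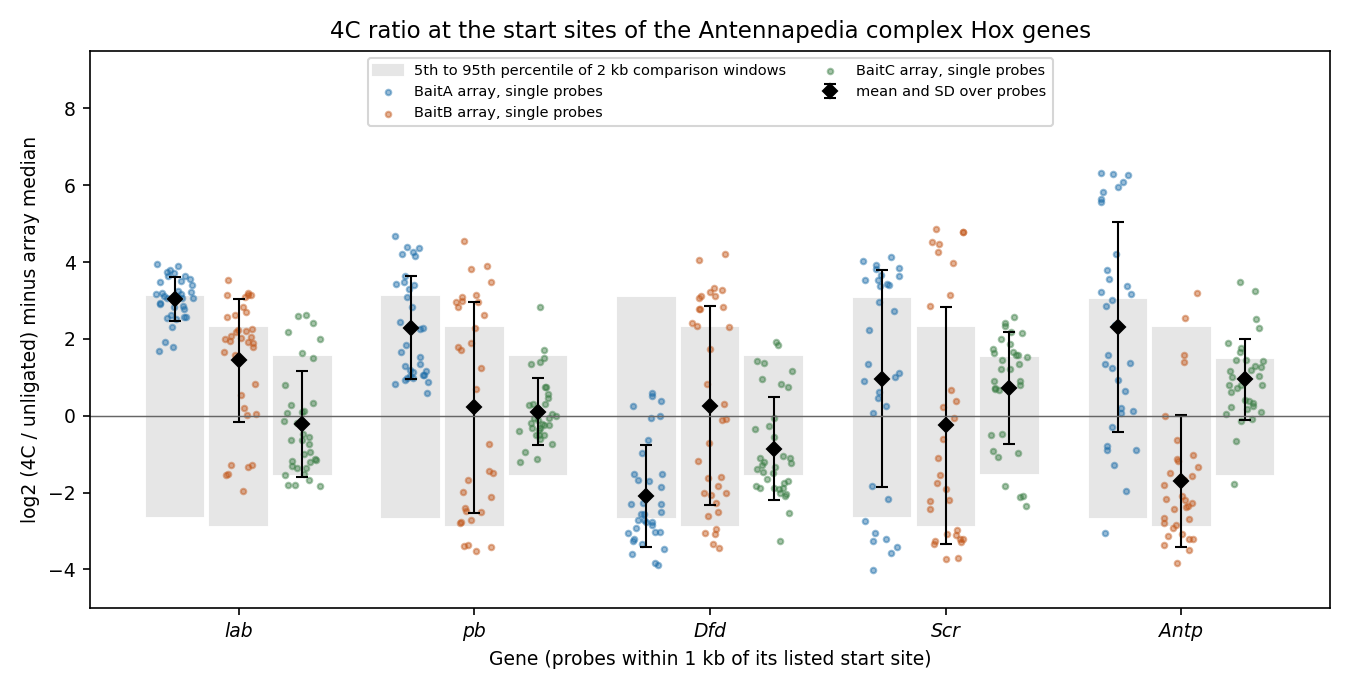
Log2 ratio minus the array median (y axis) of the single probes within 1 kb of the listed start site of lab, pb, Dfd, Scr and Antp (x axis) in the BaitA, BaitB and BaitC arrays (coloured points); diamonds and bars are the mean and SD over probes, and grey boxes span the 5th to 95th percentile of 2 kb windows of 3R at a similar distance (for BaitB, all of 3R beyond 1 Mb). All 15 means lie inside their grey boxes, with lab in the BaitA array, at 3.04, closest to an upper edge.

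The means at start sites hide steps within the window. The ratio moved in blocks shorter than the window, and in 13 of the 15 windows of the 5 genes the probes lay on both sides of the array median. In 8 of 15 the kilobase upstream of the start site and the kilobase downstream of it differed by more than 1. At Antp in the BaitA array the upstream kilobase averaged 4.39 ± 1.58 and the downstream one -0.21 ± 1.28. The same upstream kilobase averaged -2.40 ± 0.70 with BaitB and 1.23 ± 1.04 with BaitC. At Scr the BaitA array rose into the listed span instead, from -1.12 ± 2.24 upstream to 3.31 ± 0.90 downstream, while the BaitC array fell from 1.79 ± 0.42 to -0.51 ± 1.22.

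At lab the BaitA ratio was level across the start site, at 3.40 ± 0.39 upstream and 2.67 ± 0.51 downstream. The raised block was limited in length: within 5 kb of the start site lab averaged 1.30 ± 2.33. Dfd also changed at that scale. It was low on both sides with BaitA, at -2.22 ± 1.39 upstream and -1.94 ± 1.28 downstream, but averaged 0.39 ± 2.16 within 5 kb. At pb the upstream kilobase was higher than the downstream one with BaitA, at 2.92 ± 1.39 and 1.54 ± 0.77, and with BaitB, at 1.59 ± 2.35 and -1.43 ± 2.30.

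**Figure D3:**
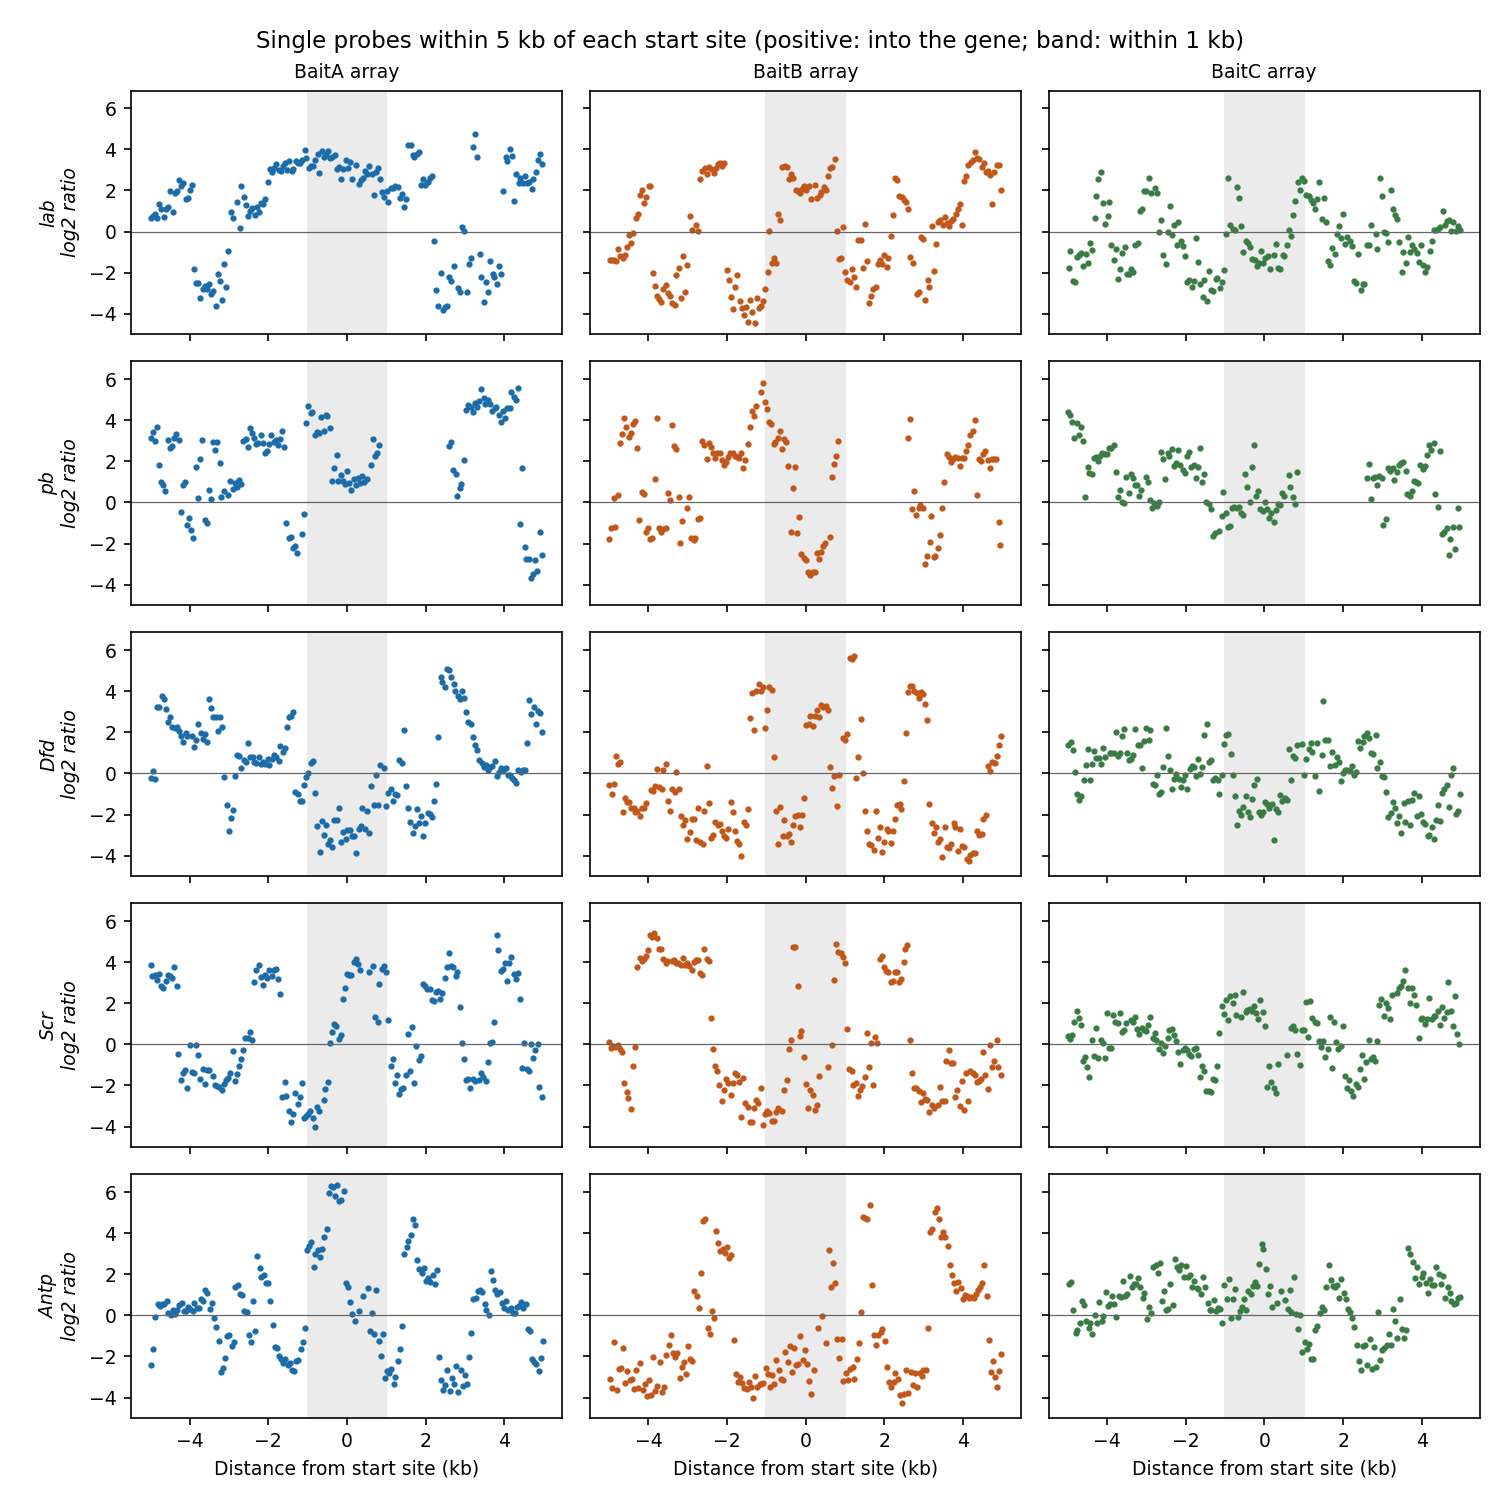
Log2 ratio minus the array median (y axis) of every probe within 5 kb of each listed start site (x axis, kb, positive into the listed span), with 1 row for each Hox gene and 1 column for each array; the grey band marks 1 kb on each side. Values form short plateaus, such as the block near 6 just upstream of the listed Antp start site in the BaitA array and the level stretch near 3 around the lab start site.

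The 5 Hox genes met peaks about as often as other listed genes. Peaks were those the authors called with NimbleScan on each array, filtered at their false discovery rate (FDR), and a gene was paired with a peak within 5 kb of its span or start site. All gene names are those paired in this way at FDR of at most 0.2 in at least 1 array. Genes near no such peak are left out, and the shares of all gene names would be lower with them. At FDR of at most 0.05, 1 of the 5 genes (Antp) was paired with a BaitA peak, where 31.7% of all gene names were. BaitB peaks were paired with 3 of 5 (pb, Scr and Antp), against 37.6% of gene names, and BaitC peaks with 1 of 5 (pb), against 31.1%. At FDR of at most 0.01 the counts were 0 for BaitA (2.97% of gene names), 1 for BaitB (Scr, 14.9%) and 1 for BaitC (pb, 17.2%). At 0.2, the limit of the deposited tables, 4 genes were paired with BaitA peaks (70.0%), 5 with BaitB peaks (71.6%) and 3 with BaitC peaks (59.8%). Peaks of FDR at most 0.05 that overlapped the listed span itself were found for 0 of 5 genes with BaitA (14.8% of gene names), 1 with BaitB (Antp, 17.7%) and 0 with BaitC (14.4%).

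The BaitA peak at Antp (3R, 2735705 to 2736140) begins 73 bp upstream of the listed start site. Its 8 probes averaged 5.99 ± 0.30 with BaitA, against -2.01 ± 0.59 with BaitB and 1.62 ± 0.98 with BaitC. The probes of a peak were picked for their height in 1 array, so lower means in the other arrays follow in part from that choice. This holds for each peak described here and below. BaitB had its own Antp peak inside the listed span, at 2734000 to 2734229 and 1403 bp from the listed start site. The 4 probes of that peak averaged 4.89 ± 0.32 with BaitB, 3.47 ± 0.38 with BaitA and 1.12 ± 1.01 with BaitC. BaitA and BaitB were thus both above 3 there, while at the BaitA peak they lay on opposite sides of the median. These 2 arrays shared a slide, and an effect of that on the ratio was not tested. With 1 array for each bait, effects of slide and bait cannot be told apart.

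The BaitB peak paired with Scr (3R, 2671693 to 2671904) lay 3791 bp upstream of the start site. It averaged 5.15 ± 0.32 over 5 probes, against -0.66 ± 0.68 with BaitA and 0.74 ± 0.86 with BaitC. The BaitB peak paired with pb (3R, 2566864 to 2567128), 1043 bp upstream of the start site, averaged 5.20 ± 0.49 over 4 probes. The same 4 probes gave -0.18 ± 2.81 with BaitA and -0.76 ± 0.90 with BaitC. The BaitC peak paired with pb (3R, 2570704 to 2571205) was 4883 bp upstream, beyond the start site of its neighbour zen2, with which it was paired too. It averaged 3.48 ± 0.69 over 9 probes, against 2.09 ± 0.88 with BaitA and -1.81 ± 1.08 with BaitB.

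Inside lab, peaks passed only the looser limit. The highest in the BaitA array (3R, 2492934 to 2493488, FDR 0.0646) averaged 5.00 ± 0.28 over 11 probes, against -3.14 ± 0.50 with BaitB and 1.02 ± 0.75 with BaitC. BaitB had 3 peaks in lab of FDR between 0.126 and 0.167, and BaitC had none in the tables. In Dfd both listed BaitA peaks and the BaitB peak were of this kind, and the BaitA and BaitB peaks near the far end of the gene overlapped (3R, 2627253 to 2628288 and 2627298 to 2627580). The BaitA peak averaged 3.89 ± 1.94 over its 18 probes and the BaitB peak 5.74 ± 1.06 over its 4.

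Over the whole complex, 8 BaitA peaks of FDR at most 0.05 gave 17.8 per Mb (exact 95% Poisson interval 7.68 to 35.0, counting error only), against 17.5 per Mb of 3R at a similar distance. The 9 BaitC peaks gave 20 per Mb (9.15 to 38.0), against 25.8. The BaitC ratio of these densities, 0.775, was 1.36 at FDR of at most 0.01 and 1.08 at 0.2, so its direction depended on the limit. The 16 BaitB peaks gave 35.6 per Mb (20.3 to 57.7), against 21.7 on 3R outside the complex and beyond 1 Mb, which lies inside the interval. The BaitB ratio was 1.64, and it was 2.19 at FDR of at most 0.01 and 1.27 at 0.2. At these limits too the comparison density lay inside the interval. The 33 peaks were short, with a median of 325 bp and a longest of 719 bp, and 10 of them had no gene within 5 kb.

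The highest BaitA peak of the complex lay outside the Hox genes, inside the span of Taf1 (3R, 2476059 to 2476433), which encodes a subunit of the general transcription factor TFIID. It averaged 6.29 ± 0.22 over 7 probes. A BaitB peak began at the same probe (3R, 2476059 to 2476379) and averaged 4.97 ± 0.23 over 6 probes, and the BaitC array was at 2.50 ± 0.41 over those. BaitC had a peak from the same probe too (3R, 2476059 to 2476485), at the looser FDR of 0.140. It averaged 2.49 ± 0.51 over 8 probes. What these shared peaks owe to the slides was not tested. The highest BaitB peak (3R, 2697985 to 2698186) had no listed gene within 5 kb and averaged 6.54 ± 0.43 over 4 probes, against 2.72 ± 1.28 with BaitA and 0.48 ± 0.73 with BaitC. The highest BaitC peak (3R, 2867597 to 2867819) averaged 5.21 ± 0.34 over 4 probes, against 2.33 ± 2.29 with BaitA and 2.52 ± 1.78 with BaitB.

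Peaks next to the non-Hox developmental genes of the complex were found with BaitA and BaitC. One of each bait was paired with ftz, the pair-rule gene between Scr and Antp. The BaitA peak covers the ftz start site (3R, 2689840 to 2690164) and averaged 5.17 ± 0.49 over 6 probes, against -3.05 ± 0.73 with BaitB and -1.72 ± 0.77 with BaitC. The BaitC peak lies just beyond the listed ftz span (3R, 2691705 to 2691989) and averaged 4.23 ± 0.77, against -0.77 ± 1.15 with BaitA. At FDR of at most 0.05, 2 of the 5 genes zen, zen2, bcd, ftz and Ama were paired with BaitA peaks, 0 with BaitB peaks and 2 with BaitC peaks, beside 31.7%, 37.6% and 31.1% of all gene names.

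The start sites of these 5 genes spanned a narrower range than those of the Hox genes with BaitA and reached a higher level with BaitC. In the BaitA array they ran from -0.54 at zen, which acts in dorsal tissue of the early embryo, to 2.47 at ftz, with a median of 1.35. In the BaitB array ftz was lowest at -1.94 and zen highest at 1.56. In the BaitC array zen2, a duplicate of zen, stood at 1.84 ± 1.20 (SD over 35 probes), and 23 of 1341 windows at a similar distance from BaitC were at its level or above. Bcd, the gene of the anterior morphogen Bicoid, was at 1.58 with BaitA, 1.06 with BaitB and 0.55 with BaitC. Ama, which encodes an immunoglobulin-domain cell adhesion protein, was at 1.35, -1.36 and 0.78 in the same order.

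Bins that stood out within the complex were few. In the BaitA array 2 of 90 bins exceeded the 95th percentile of the comparison bins, which 5.11% of those did. In the BaitB array 6 of 90 did (5.01%) and in the BaitC array 5 of 90 (5.01%). The highest BaitA bin, 3R, 2475000 to 2479999, holds the Taf1 peak and averaged 2.95 ± 2.06 (SD over 91 probes), against 1.71 with BaitB and 0.51 with BaitC. The next, 2705000 to 2709999 between ftz and Antp, averaged 2.52 with BaitA, -1.78 with BaitB and -0.18 with BaitC. The highest BaitB bin, 2495000 to 2499999, lies inside lab and averaged 2.53 ± 1.70, against 0.25 with BaitA and 0.13 with BaitC. The bin 2570000 to 2574999, which starts beside zen2, was the third highest with both BaitB, at 1.76, and BaitC, at 1.31, and was at 1.35 with BaitA. Of the 90 bins, 2 exceeded the limit in more than 1 array.

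**Figure D4:**
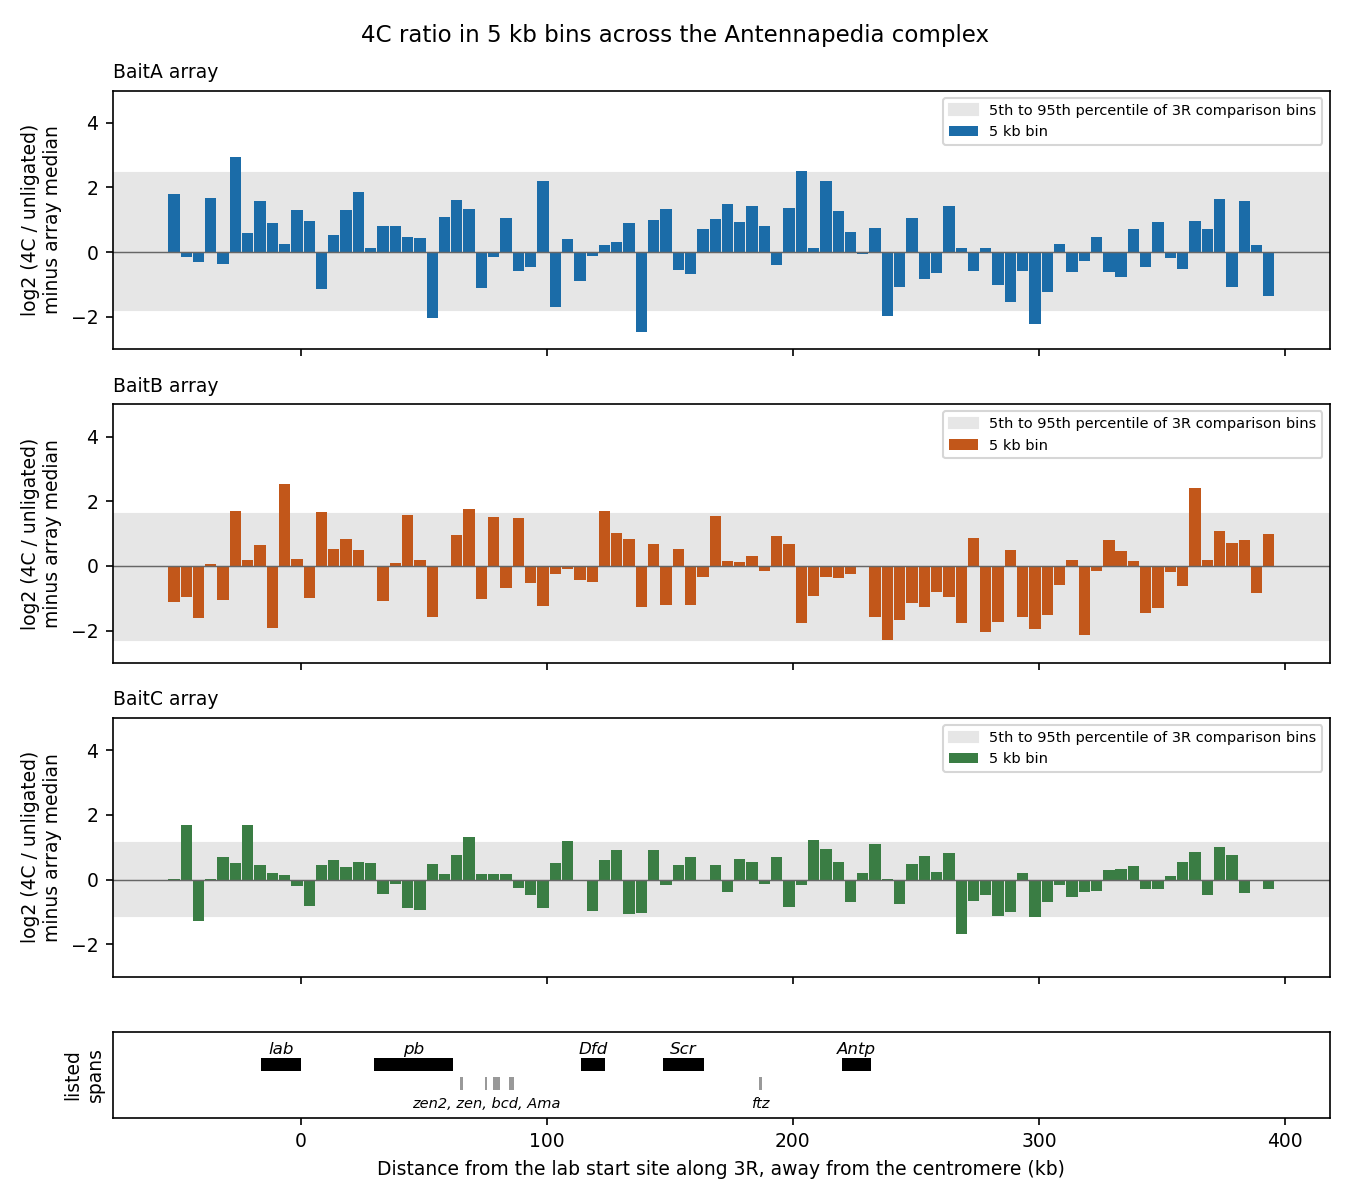
Mean log2 ratio minus the array median (y axis) in 5 kb bins across 450 kb of 3R, by distance in kb from the lab start site (x axis), for the BaitA, BaitB and BaitC arrays; the grey band is the 5th to 95th percentile of the comparison bins of 3R, and the lowest panel shows the listed spans of the 5 Hox genes (black) and of zen2, zen, bcd, Ama and ftz (grey). Bars rise above the band in 2, 6 and 5 bins. Between the listed Antp span and Sodh1, 17, 19 and 15 of 27 bars point down in the BaitA, BaitB and BaitC panels.

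Among the stretches between and beside the listed Hox spans, the one beyond the listed Antp span had the lowest mean in all 3 arrays. From the listed Antp start site to the distal edge (164 kb), the BaitA array averaged -0.20 ± 2.40 (SD over 2937 probes), and 3323 of 3474 windows of that length at a similar distance were at that level or above, the 4.35th percentile. BaitB averaged -0.56 ± 2.50 there, at the 19.1st percentile, and BaitC -0.09 ± 1.58, at the 29.3rd. These windows were shifted in 1 kb steps and overlap heavily. Between the Antp start site and Sodh1, the next gene but one, 17 of 27 bins were below the array median with BaitA, 19 with BaitB and 15 with BaitC. In the remaining 63 bins of the complex the counts were 19, 31 and 24. The stretch was singled out by its low mean, so its larger share of bins below the median follows in part from that choice. That share was not counted over the comparison bins, which averaged -0.27 with BaitB. The RefSeq gene of Antp is 103 kb long, against 11.6 kb listed, and only 56.1 kb lie between the listed Scr and Antp spans. Unless the gene reaches into the Scr span, part of this stretch is therefore the Antp gene itself. How large that part is cannot be read from the listed spans.

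Of the listed Hox spans, lab was highest with BaitA, at 0.80 ± 2.82 (SD over 290 probes), and with BaitB, at 0.42 ± 2.46. Dfd was lowest with BaitA, at -0.68 ± 2.59 (172 probes, 13.5th percentile), and with BaitC, at -0.53 ± 1.38 (15.3rd percentile). The pb span, the longest at 31.9 kb, averaged 0.17 with BaitA, -0.20 with BaitB and -0.28 with BaitC, below the level at its start site in each. The 56.1 kb between Scr and Antp, which hold ftz, were the highest of these intervals with BaitA, at 1.06 ± 2.49 (1009 probes, 86.6th percentile). They averaged 0.32 ± 1.48 with BaitC (86.4th percentile) and -0.02 ± 2.54 with BaitB (68.7th percentile).

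**Figure D5:**
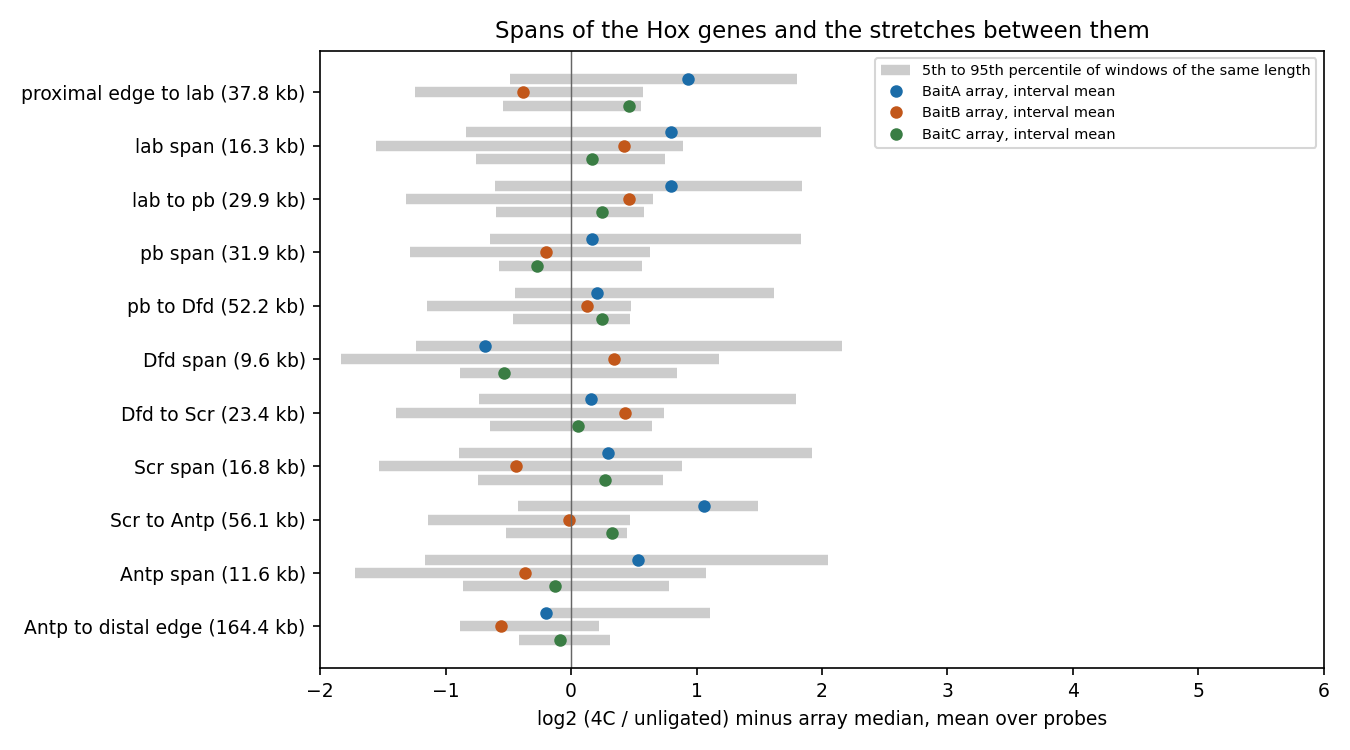
Mean log2 ratio minus the array median (x axis) over the listed span of each Hox gene and over each stretch between them (y axis, with lengths in kb) in the BaitA, BaitB and BaitC arrays (coloured points); grey bars span the 5th to 95th percentile of 3R windows of the same length at a similar distance. All means lie inside their grey bars except the stretch from Antp to the distal edge in the BaitA array, at -0.20.

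The bithorax complex, the other Hox cluster of 3R, lies about 10 Mb further from both baits of that arm. Its start sites were at 1.30 ± 0.74 for Ubx, -0.59 ± 1.56 for abd-A and 1.17 ± 1.60 for Abd-B in the BaitA array (SD over probes), within the range of the Antennapedia complex genes. These levels are not adjusted for the larger distance. Among windows at a similar distance from BaitA, Ubx was at the 82.5th percentile, abd-A at the 42.1st and Abd-B at the 80.1st. With BaitB the 3 start sites were at -0.27, -1.95 and -0.38, and with BaitC at 0.59, -0.14 and 0.03. BaitB peaks of FDR at most 0.05 were paired with all 3 of these genes, BaitA peaks with 0 and BaitC peaks with 1 (Ubx), beside 3, 1 and 1 of the 5 Antennapedia complex genes and 37.6%, 31.7% and 31.1% of all gene names.

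Genes of like pattern were sought as those whose 3 start-site levels were nearest to a member's, among 12233 genes outside the complex, by Euclidean distance over the 3 arrays. The nearest were TH1 on X for lab (distance 0.19), CG15531 on 3R for pb (0.15), NitFhit on 3L for Dfd (0.12), CG15770 on X for Scr (0.07) and cDIP on 3R for Antp (0.16). TH1 stood at 3.12 with BaitA, 1.61 with BaitB and -0.19 with BaitC, and cDIP at 2.22, -1.76 and 1.07. With 3 values per gene and this many genes, a close match is found for each member.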

How the data were processed

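The authors' deposited log2 ratios per probe (4C product over unligated DNA; centring not given in the sources used here) were centred on each array's median: -0.16 for BaitA, -0.14 for BaitB and -0.02 for BaitC. Centring on arms without the bait adds 0.22, 0.49 and 0.05. Per the file headers, NimbleScan called peaks on each array and estimated false peaks from shuffled data. Their score, on the log2 scale, and the FDR, which plays the part of a q-value or p-value, are the authors'. All value columns belonged to a sample. PCR products saturate, so a ratio is not a contact frequency.

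Start-site values are means over probes within 1 kb. Bins of 5 kb needed at least 20 probes. Comparison windows lay on 3R outside the complex, at 50 to 200% of the distance from BaitA or BaitC, and for BaitB anywhere beyond 1 Mb. Percentiles describe these arrays and are not tests. Named genes were all 5 members, fixed lists of related genes, and the highest bins and peaks. The members and lists were chosen with earlier results of these data known. Symbols came from RefSeq (Release 6) by accession, which matched 19 of the 20 transcripts of the 5 genes. No sequences are shown. Calculations used Python 3.11.15 with numpy 2.4.6, pandas 2.3.3 and scipy 1.17.1, and were tested on simulated data. The number of arrays limits the precision.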

Additional observations from a re-analysis of the deposited data

How the results depend on the processing

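No paired analysis was possible because each bait had 1 array. Of 90 alternative start-site values, 87 moved by less than the SD over probes. The others were lab and Dfd within 5 kb in the BaitA array (1.30 and 0.39) and lab within 2 kb in the BaitB array (-0.64). The count of 87 was partly fixed in advance. The 15 values at the most upstream start site could not move, since each gene has 1 listed start site. The 15 values centred on arms without the bait moved by a constant below the smallest SD, 0.57. The SD was also a wide limit: pb in the BaitB array counted as within it at -1.55 (500 bp each side), against 0.22. So did Antp in the BaitA array at 0.23 (5 kb each side), against 2.30. The sign changed in 9 of the 90. Start-site percentiles were judged by another limit, and 41 of 50 left the counting interval of the reported percentile. Shifts reached 16.9 points with medians over probes, 17.6 among start sites of other genes and 15.3 against all windows beyond 1 Mb. All 15 alternatives of the mean over the complex, and all 7 of its difference from comparison bins, moved by less than the SD over bins, a wide limit for a mean over many bins. That difference for BaitA changed sign, to 0.43, against all of 3R beyond 1 Mb. The percentile of the complex was 0 for BaitA (6 windows) and 50.0 for BaitC (4 windows) at a narrower range of distances, and 90.1 and 84.6 against all windows beyond 1 Mb. It was 37.4 for BaitB by medians. Hox genes above the 90th percentile with BaitA numbered 3 against all windows and 0 by medians, and those below the 10th 0 against all windows. With BaitC 1 was below the 10th among start sites of other genes. Bins past the limit in the BaitA, BaitB and BaitC arrays numbered 4, 10 and 8 at the 90th percentile, 0, 2 and 2 at the 99th, 9, 11 and 12 with 2 kb bins, and 0, 0 and 2 with 10 kb bins. Peaks in the complex numbered 0 and 6 for BaitA and BaitB at FDR of at most 0.01 and 32, 38 and 27 for the 3 baits at 0.2, and the BaitA density ratio at 0.01 was 0. The BaitC ratio passed from 0.775 to 1.36 at 0.01 and 1.08 at 0.2. Hox genes with a peak numbered 0 and 1 for BaitA and BaitB at 0.01, 4, 5 and 3 at 0.2, and 0, 1 and 0 by overlap with the span. The causes of these shifts were not tested.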

Other observations

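The other 25 genes with a listed start site in the complex had medians of 0.74 with BaitA, -0.36 with BaitB and 0.41 with BaitC, and 18, 11 and 17 of them were above the array median. Over all listed genes the medians were 0.38, 0.39 and 0.26, so most listed genes are above it in each array. The highest were CG15177 at 2.80, Ass at 2.20, dj at 2.14 and Sodh1 at 1.85 with BaitA. For BaitB they were Ccp84Ag at 3.11, CG1162 at 2.81, Ccp84Ad at 2.23 and dj at 1.71, and for BaitC sunz at 2.08, CG15177 at 1.78, twr at 1.59 and Edg84A at 1.30. Ass encodes argininosuccinate synthase and dj a sperm protein. Between lab and pb lie 7 listed cuticle protein genes, Edg84A and the Ccp84A genes, and all 7 were above the array median with BaitC, from 0.25 to 1.30. With BaitA and with BaitB 4 of 7 were. Their BaitC median was 0.415, beside 0.26 over all listed genes, and some of their start-site windows overlap, so the 7 are not independent.

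Regulators of Hox genes were listed elsewhere in the genome. Of 10 Polycomb group names 8 were measured, and their start sites had medians of -0.35 with BaitA, 0.76 with BaitB and 0.39 with BaitC, beside 0.38, 0.39 and 0.26 over all genes. The highest in the BaitA array was pho, on chromosome 4, at 4.03, and the lowest ph-p, on X, at -2.29, which was the highest with BaitB at 2.82. At FDR of at most 0.05, 6 of the 8 measured names were paired with BaitA peaks (31.7% of all gene names), 1 with BaitB peaks (37.6%) and 1 with BaitC peaks (31.1%). Of these, ph-p and ph-d are neighbours that lie close together. The 5 trithorax group genes had medians of 0.88, 0.05 and 0.27, and 0, 3 and 1 of them were paired with peaks, beside the same shares of all gene names. Of the Hox cofactors, exd was at -2.09, 1.37 and 0.31 and hth at 1.65, -0.02 and 0.14.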
